A study of Mus musculus with 6 samples.

Results

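Accessibility at 10 genes of cell adhesion was followed across injury of the mouse olfactory epithelium: Icam1, the integrin subunits Itgb4, Itga6, Itga3, Itgb1, Itga2, Itga5, Itgav and Itgb6, and the hemidesmosomal collagen Col17a1. They were chosen by name, with earlier results of these data known, and all 10 were found among 21938 protein-coding genes of the annotation. Their counts beside shares over all windows or tiles are therefore descriptions. The measurement was chromatin accessibility in single nuclei (single-cell ATAC-seq), in which a transposase cuts open DNA and each fragment end marks 1 cut site. For each gene, cut sites were counted within 1 kb of its 5′-most annotated start, and in 500 bp tiles over each gene body and 30 kb to either side, summed over the barcodes of a library with at least 2000 fragments. Values are cut sites relative to the scaled total of the library (CPM), and changes are log2 ratios of injured to uninjured libraries.

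All mice carried Krt5CreER, with Rosa26 LSL-YFP on both alleles, so that Cre driven by Krt5, a keratin of basal cells, switched on YFP in basal cells and left it on in their descendants. The 3 uninjured libraries came from control mice and the 3 injured libraries from mice taken 24 h after methimazole, an olfactory toxicant injected into the peritoneum that strips most of the epithelium above the basal layer. Replicate 1 was from mice 8 weeks old, replicate 2 from mice 6 weeks old and replicate 3 from mice 6 to 7 weeks old, in both groups. YFP-positive, propidium iodide-negative cells of the dorsal epithelium were sorted and their nuclei used. The libraries are labelled as separate biological replicates, the epithelium of each animal was processed on its own, and the number of mice behind a library is not given. The p-values measure the spread between libraries.

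The libraries held 420 to 1338 kept barcodes and 14825320 to 44875242 cut sites. The label of horizontal basal cells was checked against marker lists: of 13 clusters of barcodes, 5 were named horizontal basal-like (numbered 1, 2, 3, 5 and 13). The clusters were made from tiles outside the 10 loci. The basal-like ones held 330, 553 and 159 barcodes of uninjured replicates 1 to 3 and 1195, 323 and 346 of injured replicates 1 to 3. Cluster 13 was deep, with a median of 65265 fragments against 8288.5 in cluster 1. Of its 77 barcodes, 61 came from uninjured replicate 2. At the Icam1 start these 61 gave 582 of the 1182 basal-like cut sites of that library, so they weigh heavily in its basal-like values. Other clusters were named neuronal precursor-like, mature neuron-like, sustentacular-like and immune-like, and 4 were left unnamed, 1 of which (cluster 7) drew 166 of its 187 barcodes from uninjured replicate 3. Uninjured replicate 3 and injured replicate 3 shared 34 barcodes, against 0 to 4 for every other pair of libraries. In all 34, at least 92.9% of the fragments of the shallower barcode were also present in the deeper one. Injured replicate 2 stood apart in that 16 barcodes with under 20% of their cut sites in open tiles carried 15.9% of all its cut sites. Results are given with all barcodes, and where leaving out shared or such low-share barcodes ended a call this is stated.

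Integrins are receptors made of an alpha and a beta chain that hold cells to the matrix and pass signals both ways. In basal cells of epithelia, Itga6 pairs with Itgb4 in the hemidesmosome, where Col17a1 also spans the membrane, and this complex ties keratin filaments to laminin in the basement membrane. Itgb1 pairs with Itga3 (a laminin receptor), Itga2 (a collagen receptor) and Itga5 (a fibronectin receptor), while Itgav pairs with several beta chains, among them Itgb6, and binds matrix proteins and latent TGF-beta. Icam1 is an immunoglobulin-type surface protein that binds the leukocyte integrins built on Itgb2, and antibodies to it are used to sort horizontal basal cells, the reserve stem cells that lie flat on the basement membrane of the olfactory epithelium.

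A set of 5 stretches carries the main results and is printed here 5′ to 3′ on the forward strand of GRCm38 (RefSeq assembly). The first and second are the 250 bases before the Icam1 start (chr9:21015735-21015984) and the intron 2 stretch of Icam1 (chr9:21022201-21022500), shown because accessibility fell at both. The other 3 lie upstream of Itga2 (chr13:114945701-114946000), Itgav (chr2:83699501-83699800) and Itga3 (chr11:95085701-95086000), outside any protein-coding gene, and are shown because they opened after injury. Capitals mark letters that match 1 of 8 motifs searched on both strands. Only exact matches are marked (NF-kB as GGGRNWYYCC), so letters without capitals may still hold a variant of a site. In the Icam1 promoter the capitals are a STAT match (TTCNNNGAA), which 7.23% of all starts hold in the 250 bases before them. In the Icam1 intron they are matches to the p53 family half-site and then to NF-kB, and in the other 3 they are AP-1 matches (TGANTCA).
Icam1 promoter: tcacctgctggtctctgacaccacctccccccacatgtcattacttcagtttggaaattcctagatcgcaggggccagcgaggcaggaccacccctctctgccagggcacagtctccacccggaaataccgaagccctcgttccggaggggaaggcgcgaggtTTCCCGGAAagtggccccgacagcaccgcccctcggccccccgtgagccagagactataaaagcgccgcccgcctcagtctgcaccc
Icam1 intron 2: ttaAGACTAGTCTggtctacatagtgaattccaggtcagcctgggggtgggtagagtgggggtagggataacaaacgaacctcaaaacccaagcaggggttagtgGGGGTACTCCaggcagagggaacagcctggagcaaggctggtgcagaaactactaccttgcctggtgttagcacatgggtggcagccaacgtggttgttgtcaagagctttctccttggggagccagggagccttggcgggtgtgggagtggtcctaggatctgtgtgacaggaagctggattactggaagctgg
Itga2 upstream: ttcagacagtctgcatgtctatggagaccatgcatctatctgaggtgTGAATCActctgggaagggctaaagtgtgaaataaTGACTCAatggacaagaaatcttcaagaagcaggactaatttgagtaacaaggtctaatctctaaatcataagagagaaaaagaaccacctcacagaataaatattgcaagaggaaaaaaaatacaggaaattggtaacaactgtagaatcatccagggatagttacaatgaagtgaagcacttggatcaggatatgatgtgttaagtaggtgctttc
Itgav upstream: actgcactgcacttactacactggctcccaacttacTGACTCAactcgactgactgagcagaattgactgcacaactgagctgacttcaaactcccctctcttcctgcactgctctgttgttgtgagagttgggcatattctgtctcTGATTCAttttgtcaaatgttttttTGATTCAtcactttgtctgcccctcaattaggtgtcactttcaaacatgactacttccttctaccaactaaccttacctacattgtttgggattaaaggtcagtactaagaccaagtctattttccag
Itga3 upstream: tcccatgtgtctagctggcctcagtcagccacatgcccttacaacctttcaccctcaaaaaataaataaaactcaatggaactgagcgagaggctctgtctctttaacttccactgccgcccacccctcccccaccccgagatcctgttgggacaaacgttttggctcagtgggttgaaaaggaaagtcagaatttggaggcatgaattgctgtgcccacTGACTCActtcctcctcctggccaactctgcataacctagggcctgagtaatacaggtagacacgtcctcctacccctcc
The whole 500 bp Icam1 intron tile held 3 NF-kB matches, where 6.21% of all tiles tested hold any. The Itga2 stretch held 2 AP-1 matches, the Itgav stretch 3 and the Itga3 stretch 1. A match is a description of the letters and not evidence that a factor was bound.

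Icam1 lost accessibility after injury at its start and through its gene body. Within 1 kb of its start (chr9:21014985-21016985, ENSMUSG00000037405.8) the uninjured libraries held 51.9, 39.8 and 35.3 CPM and the injured libraries 29.3, 26.5 and 23.0 CPM. Every injured library lay below every uninjured one. The group means were 42.4 ± 8.60 and 26.2 ± 3.17 CPM (SD, n = 3), and the window fell by 0.68 ± 0.14 on the log2 scale (SE; edgeR quasi-likelihood adjusted p 0.0263). Of all 17163 start windows tested, 1.71% were called lower, 2.21% higher and 3.92% either way at an adjusted p under 0.05. The call was lost when uninjured replicate 1 (edgeR adjusted p 0.0504) or 2 (0.0708) or injured replicate 2 (0.107) was left out, with the log2 change between −0.80 and −0.52 over all leave-one-out fits. In basal-like barcodes alone the unscaled level was 72.2, 58.5 and 55.8 CPM in uninjured and 28.9, 29.5 and 31.8 CPM in injured libraries. Fewer open nuclei and less open DNA per nucleus cannot be told apart in such sums.

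The fall of Icam1 ran beyond the start window. Over the gene body plus 2 kb upstream it amounted to −1.05 ± 0.15 (SE; edgeR adjusted p 0.0183), where 6.36% of gene bodies were called in either direction. Of the 66 tiles tested in the Icam1 locus, 7 were called lower and 0 higher, against 1.26% lower and 5.48% higher among all 406452 tiles tested. At an unadjusted p under 0.05, 0 tiles of the locus were higher and 20 lower, and DESeq2 called 0 higher and 12 lower. DESeq2 called 25506 higher and 7459 lower of all 406452 tiles, and the unadjusted count over all tiles is not given. In an edgeR fit to tiles of at least 2 times the median level, 78856 of 407941 had an unadjusted p under 0.05, directions combined. The median tile of the locus stood at −0.52, and in 28 of 66 all injured libraries lay below all uninjured ones, where 9.72% of all tiles did so. The 7 called tiles formed a stretch of 3 around the start, a stretch of 3 in intron 2 (chr9:21021501-21023000) and 1 tile past the 3′ end. That last tile (chr9:21029001-21029500) lies at an exon of the neighbouring Icam4 and holds the Icam4 start.

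The intron 2 tile with the smallest p (chr9:21022001-21022500, 6.27 kb inside the gene) contains the sequence printed above. It held 16.7, 13.05 and 8.99 CPM in uninjured libraries and 3.86, 4.90 and 4.88 CPM in injured libraries. The groups did not overlap, and the injured libraries lay closer together than the uninjured ones. Tiles named here and below were picked by p among called tiles, so the separation of their groups follows in part from that choice. The tile fell by 1.50 ± 0.22 on the log2 scale (SE; edgeR adjusted p 0.00346), a fold of 2.83. It was called under every alternative that gave it a value, each left-out library included. In basal-like barcodes the change was −1.73 (edgeR adjusted p 5.33e-07), from 21.1, 19.1 and 23.5 to 3.99, 5.93 and 7.92 unscaled CPM.

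The hemidesmosome genes did not pass the test at their starts. The Itgb4 start (chr11:115973709-115975709) held 27.9, 26.9 and 25.0 CPM in uninjured and 26.4, 28.7 and 19.2 CPM in injured libraries. The groups overlapped, with injured replicate 3 lowest and injured replicate 2 highest of all 6 (log2 change −0.10 ± 0.13 SE, edgeR adjusted p 0.672). A change missing the threshold does not show that Itgb4 was unaltered. The Col17a1 start (chr19:47691094-47693094) held 10.4, 8.79 and 7.05 CPM against 12.9, 11.4 and 7.88 CPM, again with overlap (0.31 ± 0.20, edgeR adjusted p 0.396). In basal-like barcodes the unscaled Itgb4 level was 35.6, 35.8 and 36.3 CPM in uninjured and 27.1, 31.7 and 26.0 CPM in injured libraries, without overlap, while the scaled change there was −0.09 (edgeR adjusted p 0.613). In the same barcodes Col17a1 ranged from 12.02 to 15.7 CPM before and from 12.8 to 13.4 CPM after injury, unscaled.

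Itga6 has several distant starts, and the 5′-most is the edge of the gene record, where no protein-coding transcript starts. Its 5′-most start was nearly closed, with 4 to 14 cut sites per library (0.24 to 0.49 CPM), so its fitted change rests on few counts. A protein-coding start 81146 bp further in held 268 cut sites over all libraries. The start with the highest mean level lay 41362 bp further in than the 5′-most one (chr2:71785978-71787978) and held 29.2, 30.2 and 29.3 CPM in uninjured and 23.4, 25.4 and 28.4 CPM in injured libraries. All 3 injured libraries were lower, injured replicate 3 only slightly, and the difference missed the threshold (−0.20 ± 0.09 SE, edgeR adjusted p 0.214 over 44077 starts, of which 3.9% were called). The fitted change of the closed start was 0.47 ± 0.62 (SE; edgeR adjusted p 0.691), so its direction is not established.

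In the Itga6 locus 2 of 140 tiles tested rose and 5 fell, in the Itgb4 locus 1 of 89 rose and 1 fell, and in the Col17a1 locus 4 of 66 rose and 1 fell. Over all tiles 5.48% were called higher and 1.26% lower, so the counts at Itgb4 and the rises at Itga6 are at or below the background, those at Col17a1 are near it, and the falls at Itga6 (3.57% of its tiles) are above it. In basal-like barcodes, where 18.4% of all tiles were called higher and 9.58% lower, 9 tiles rose and 5 fell at Itga6, 7 and 10 at Itgb4, and 9 and 4 at Col17a1. That fit tested 467 tiles over the 10 loci, against 723 in the main fit. Basal-like counts here and below are therefore not out of the tile numbers given per locus. An Itga6 intron 2 tile (chr2:71801501-71802000) rose from 1.70, 2.83 and 2.01 to 6.93, 6.89 and 3.52 CPM (log2 change 1.39 ± 0.31 SE, edgeR adjusted p 0.022). The groups were apart, with injured replicate 3 the lowest of its group. An Itga6 intron 3 tile (chr2:71817501-71818000) fell by 2.55 ± 0.63 from only 11, 14 and 22 cut sites to 2, 3 and 4 (edgeR adjusted p 0.0342). This tile reached the mean level needed for testing only through the uninjured libraries. With the replicate number as a block its adjusted p was 0.0524 and the call was lost. The Itga6 tiles lost their calls without any 1 library other than injured replicate 3, with edgeR adjusted p of 0.0508 to 0.174 for the intron 2 tile and 0.0745 to 0.148 for the intron 3 tile. Without the deepest 10% of barcodes they were not called either (0.06 and 0.0549), nor was the intron 2 tile with scaling by 10 kb bins (0.0693).

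The Itgb4 tile that rose lies in an Itgb4 intron 2.04 kb past the start (chr11:115976501-115977000). It went from 1.51, 1.12 and 0.553 to 4.34, 3.04 and 1.93 CPM (1.59 ± 0.43, edgeR adjusted p 0.0481), without overlap. It lost its call without any 1 library other than injured replicate 3 (edgeR adjusted p 0.0822 to 0.283), with scaling by 10 kb bins (0.126) or total cut sites (0.0695), without low-share barcodes (0.0646), without shared barcodes (0.0505) and among tiles of at least 10 times the median level (0.0579). The tile that fell lies 28.5 kb upstream in an intron of Sap30bp (chr11:115946001-115946500) and went from 8.13, 6.78 and 4.48 to 2.88, 2.19 and 3.71 CPM (−1.12 ± 0.27, edgeR adjusted p 0.0316). Its call was lost without uninjured replicate 1 or 2 or injured replicate 1 or 2 (edgeR adjusted p 0.0575 to 0.156).

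Upstream of Col17a1, which spans the hemidesmosome, a pair of tiles outside protein-coding genes changed in opposite directions. The one at 18.2 kb (chr19:47710001-47710500) rose from 0.252, 0.383 and 0.611 to 3.04, 2.76 and 1.14 CPM (2.41 ± 0.49 SE, edgeR adjusted p 0.0137). The one at 9.66 kb (chr19:47701501-47702000) fell from 5.73, 4.48 and 5.09 to 1.73, 1.76 and 2.60 CPM (−1.32 ± 0.26, edgeR adjusted p 0.0117). Neither tile showed overlap between the groups. The rise was not called without uninjured replicate 1 or 2 or injured replicate 1 or 2 (edgeR adjusted p 0.0711 to 0.103), nor the fall without uninjured replicate 1 (0.0674) or injured replicate 2 (0.0612).

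**Figure D1:**
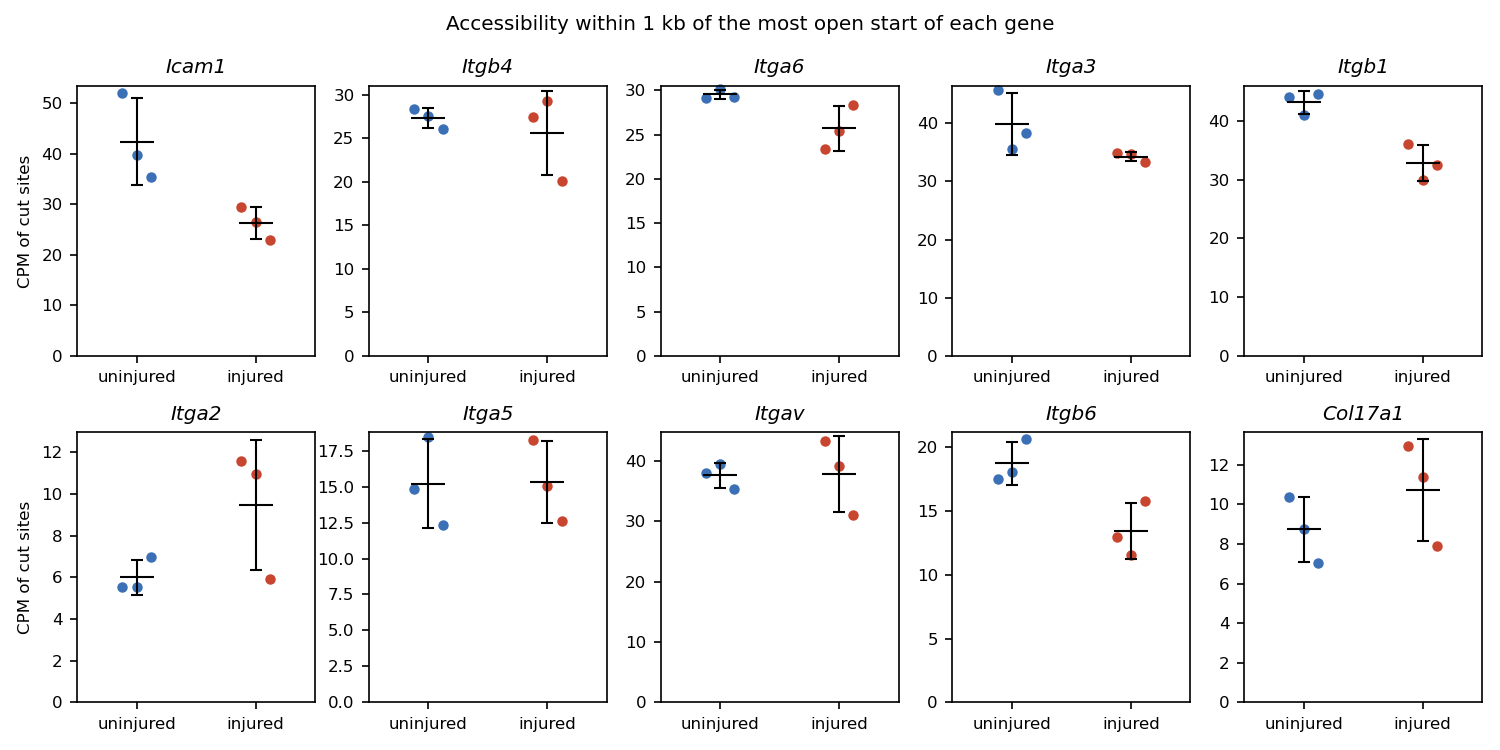
CPM of cut sites within 1 kb of the most open annotated start of each gene, 1 dot per library, with the mean and SD (n = 3) in black; blue dots are uninjured and red dots injured libraries. At Icam1 and Itgb1 all injured libraries lie below all uninjured ones and the difference is called. At Itga6, Itga3 and Itgb6 they also lie below, without a call, while at Itgb4, Itga2, Itga5, Itgav and Col17a1 the groups overlap.

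Among the partners of Itgb1, the laminin receptor Itga3 and the collagen receptor Itga2 were not called at their starts but were called over their gene bodies, Itga3 lower and Itga2 higher. At the Itga3 start (chr11:95075801-95077801) uninjured libraries held 45.2, 35.3 and 37.9 CPM and injured libraries 34.6, 34.7 and 33.4 CPM. The groups did not overlap, but uninjured replicate 2 lay just above the injured libraries and the change of −0.20 ± 0.09 (SE) was not called (edgeR adjusted p 0.222). Over the gene body Itga3 fell by 0.52 ± 0.13 on the log2 scale (edgeR adjusted p 0.0452). Within its locus an intron 2 tile fell (chr11:95073001-95073500), from 18.5, 14.3 and 11.3 to 6.78, 5.94 and 7.26 CPM (−1.13 ± 0.18, edgeR adjusted p 0.00532), while an upstream tile rose.

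That upstream tile of Itga3, 8.95 kb before the start and outside protein-coding genes (chr11:95085501-95086000), holds the stretch printed above. It went from 1.39, 1.24 and 0.785 CPM in uninjured to 9.15, 5.56 and 3.27 CPM in injured libraries. The lowest injured library stood above the highest uninjured one (2.42 ± 0.39 SE, edgeR adjusted p 0.00505). Both Itga3 tiles kept their calls under every alternative that gave them a value. Of the 73 Itga3 tiles tested, 4 rose, all upstream of the start, and 3 fell, 2 of them inside the gene and 1 in an exon of the neighbouring Pdk2. The share that rose equals that over all tiles (5.48%), and 1.26% of all tiles fell.

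At the Itga2 start (chr13:114931100-114933100) the libraries held 5.52, 5.53 and 6.96 CPM before and 11.5, 10.96 and 5.90 CPM after injury. Injured replicate 3 lay within the uninjured range, and the change was not called (0.65 ± 0.24 SE, edgeR adjusted p 0.139). Without injured replicate 3 it was called, at 0.90 (edgeR adjusted p 0.00707), and over the gene body it was called with all libraries (0.72 ± 0.16, edgeR adjusted p 0.0366). In basal-like barcodes the unscaled start levels overlapped, at 8.84, 7.57 and 9.86 against 10.95, 12.4 and 7.92 CPM.

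Upstream of Itga2 the difference was larger and the groups were apart. Of 34 tiles tested in its locus 4 rose and 0 fell, and all 4 lay upstream of the start, 2 of them adjoining (chr13:114945501-114946500). Over all tiles 5.48% rose and 1.26% fell, so 0 that fell is near the background, and in basal-like barcodes 6 tiles rose and 1 fell (18.4% and 9.58% of all tiles tested there). At an unadjusted p under 0.05, 5 of the 34 were higher and 0 lower, and DESeq2 called 4 higher and 0 lower. Over all 406452 tiles DESeq2 called 25506 higher and 7459 lower, and the unadjusted count over all tiles is not given. With tiles of at least 2 times the median level, edgeR gave 78856 of 407941 an unadjusted p under 0.05, directions combined. The tile at 13.7 kb (chr13:114945501-114946000), which holds the printed stretch, had 2, 7 and 2 cut sites in uninjured and 242, 88 and 57 in injured libraries. In CPM this was 0.126, 0.206 and 0.0582 against 5.80, 4.18 and 1.59. The fitted change was 4.84 ± 0.61 (SE; edgeR adjusted p 0.00207), and its size depends on the prior count because the uninjured counts are so low. The tile reached the level needed for testing, a mean over all 6 libraries, only through the injured libraries. It was called under every alternative that gave it a value. Basal-like barcodes held 0 to 0.297 unscaled CPM before and 2.99 to 6.43 CPM after injury.

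Itgb1, the shared beta chain, was the other member called at its start. The window (chr8:128684654-128686654) held 44.1, 41.1 and 44.6 CPM in uninjured and 36.0, 30.1 and 32.5 CPM in injured libraries. Both groups were tight and did not overlap, with means of 43.2 ± 1.89 and 32.9 ± 2.99 CPM (SD, n = 3). The window fell by 0.39 ± 0.08 on the log2 scale (SE; edgeR adjusted p 0.0215). Its call was lost when uninjured replicate 1 (edgeR adjusted p 0.0898) or 2 (0.0606) or injured replicate 2 (0.101) was left out, in basal-like barcodes (0.0538) and over the gene body (0.161). Together with Icam1, 2 of the 10 members were called at their starts, both lower, where 1.71% of all windows were called lower and 3.92% either way. The median change of the 10 was 0.00, as it was over all windows. That median takes Itga6 and Itgb6 at 5′-most starts with few cut sites, where the fitted changes were 0.47 and 1.196. At their most open starts the changes were −0.20 and −0.48, so the 0.00 does not describe the open starts of the set.

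Around Itgb1 5 of 51 tiles rose and 3 fell, where 5.48% of all tiles rose and 1.26% fell. The start tiles were among those that fell. A tile 18.4 kb upstream (chr8:128667001-128667500) rose from 0.315, 0.589 and 0.494 to 3.40, 2.42 and 1.14 CPM (2.27 ± 0.47 SE, edgeR adjusted p 0.0155). A tile 22.9 kb upstream (chr8:128662501-128663000) fell from 1.13, 2.27 and 1.28 to 0.383, 0.428 and 0.335 CPM (−2.04 ± 0.44, edgeR adjusted p 0.0185). Both lie outside protein-coding genes and showed no overlap. The rise was not called when replicate 1 or 2 of the uninjured (edgeR adjusted p 0.0808 and 0.0728) or injured group (0.118 and 0.0994) was left out, or the deepest 10% of barcodes (0.0523). The fall was not called when uninjured replicate 2 (edgeR adjusted p 0.115) or replicate 1 or 2 of the injured group (0.068 and 0.0851) was left out.

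The receptors for fibronectin and related ligands, Itga5, Itgav and Itgb6, showed starts that were not called beside tiles that rose. The Itga5 start (chr15:103365763-103367763) held 14.8, 18.5 and 12.3 CPM against 18.2, 15.1 and 12.6 CPM, with full overlap (0.01 ± 0.17 SE, edgeR adjusted p 0.98). The Itgav start (chr2:83723397-83725397) held 36.9, 38.1 and 34.5 CPM against 41.3, 37.5 and 30.04 CPM, where the injured libraries enclosed the uninjured ones (−0.01 ± 0.10, edgeR adjusted p 0.975). At a change so close to 0 the sign of Itga5 and Itgav is not meaningful and it flips between alternatives.

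Itgb6, like Itga6, has a 5′-most start with few cut sites (9 to 41 per library) and a more open start 48932 bp further in (chr2:60672711-60674711). The open start held 17.5, 18.1 and 20.7 CPM in uninjured and 12.96, 11.6 and 15.8 CPM in injured libraries. Every injured library was lower, and the change of −0.48 ± 0.13 (SE) missed the threshold narrowly (edgeR adjusted p 0.054). The closed start had a change of 1.196 ± 0.51, not called (edgeR adjusted p 0.191), and the difference between the starts was not tested.

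Of the tiles of these loci, 6 of 61 rose at Itga5, 11 of 65 at Itgav and 11 of 78 at Itgb6, where 5.48% of all tiles were called higher. None was called lower at these genes, but only 1.26% of all tiles were, so a count of 0 is near that background. In basal-like barcodes 2, 1 and 3 tiles were called lower at Itga5, Itgav and Itgb6, where 9.58% of all tiles tested there were. At an unadjusted p under 0.05, 1 tile was lower at Itga5, 1 at Itgav and 5 at Itgb6. DESeq2 called 1 tile lower at Itgb6 and 0 at the other 2 genes, where it called 7459 of all 406452 tiles lower. The unadjusted count over all tiles is not given, but with tiles of at least 2 times the median level it was 78856 of 407941, directions combined. The Itgav rise was led by a stretch of 5 adjoining tiles 25 kb upstream (chr2:83699001-83701500). Its leading tile (chr2:83699501-83700000), with the AP-1 matches printed above, went from 0.126, 0.206 and 0.727 to 7.07, 5.61 and 2.15 CPM. Uninjured replicate 3 was the highest of its group and injured replicate 3 the lowest of the other, and the groups stayed apart (3.68 ± 0.59 SE, edgeR adjusted p 0.00496). It was called under every alternative that gave it a value.

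At Itga5 the tile with the smallest p lay 27.0 kb upstream (chr15:103393501-103394000) and rose from 5, 0 and 8 to 133, 50 and 50 cut sites (3.80 ± 0.73 SE, edgeR adjusted p 0.0112). At Itgb6 it lay in intron 17 (chr2:60601001-60601500) and rose from 2, 2 and 4 to 37, 33 and 22 cut sites (3.33 ± 0.62, edgeR adjusted p 0.00953). Neither showed overlap, and both sizes depend on the prior count. Both tiles reached the mean level needed for testing only through the injured libraries. The Itga5 tile lost its call without injured replicate 2 (edgeR adjusted p 0.0715) and the Itgb6 tile without uninjured replicate 2 (0.0695) or injured replicate 2 (0.0757).

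**Figure D2:**
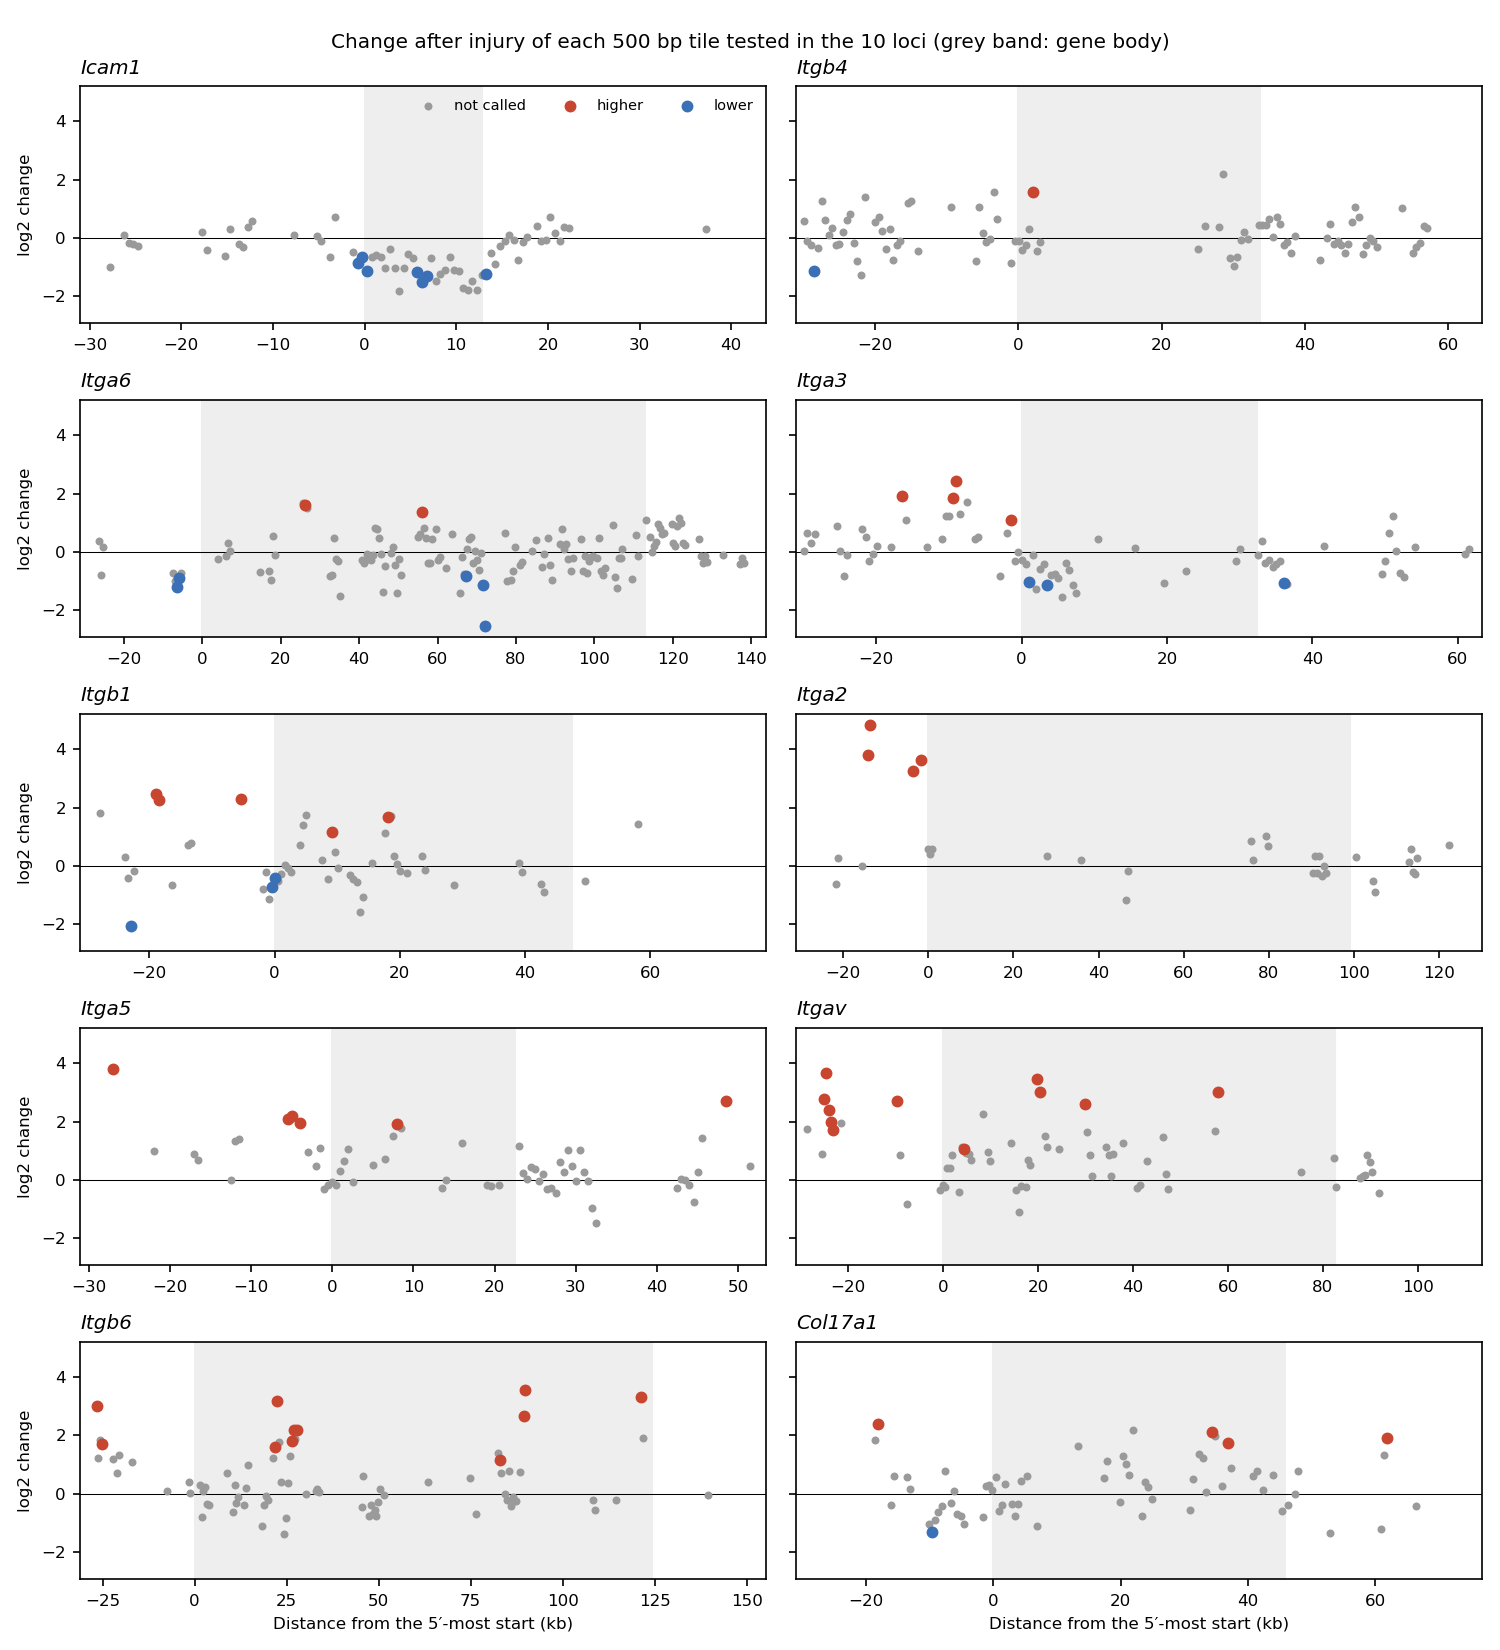
Log2 change (injured over uninjured) of each 500 bp tile tested, against its distance from the 5′-most start of the gene in kb, positive in the direction of transcription; the grey band is the gene body, red and blue dots are tiles called higher and lower (edgeR adjusted p under 0.05) and grey dots are not called. The Icam1 gene body holds only negative changes among its called tiles, and at Itga2, Itga5, Itgav and Itgb6 all called tiles are positive.

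Over the 10 loci together, 48 of 723 tiles rose (6.64%) and 20 fell (2.77%), against 5.48% and 1.26% of all tiles. All injured libraries lay above all uninjured ones in 115 of the 723 tiles and below them in 97, where 25.3% of all tiles tested showed no overlap in either direction. Of the tiles that rose 22 lay inside the member's gene body and 26 outside, and of those that fell 10 and 10. The counts moved with the library left out, as did those over all tiles. Of the uninjured group, omission of replicate 1 left 14 that rose and 3 that fell, of replicate 2 left 10 and 5, and of replicate 3 gave 43 and 23. Over all tiles these fits called 9071 higher and 807 lower of 460226, 7589 and 870 of 459876, and 22002 and 7684 of 459864. Of the injured group, omission of replicate 1 gave 8 and 12, of replicate 2 gave 6 and 2, and of replicate 3 gave 72 and 34. Over all tiles these fits called 6995 and 3006 of 462230, 4704 and 659 of 464837, and 33958 and 10685 of 451128. In basal-like barcodes, where 467 tiles were tested, 88 rose and 56 fell, against 18.4% and 9.58% of all tiles tested there. Of the 48 and 20, 46 and 16 were called in the same direction in basal-like barcodes. At Icam1 these barcodes gave 18 tiles lower and 0 higher. In all 9 loci with a named tile that rose, injured replicate 3 was the lowest injured library at that tile. Its basal-like share of kept barcodes was 46.4%, against 89.3% and 76.9% in injured replicates 1 and 2. Its mix of basal-like clusters differed too. Cluster 3 held 210 barcodes of injured replicate 3, against 216 and 73 of injured replicates 1 and 2. Cluster 2 held 103, against 618 and 205, and cluster 5 held 29, against 356 and 43. The part of these shares in the low values of injured replicate 3 was not tested.

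**Figure D3:**
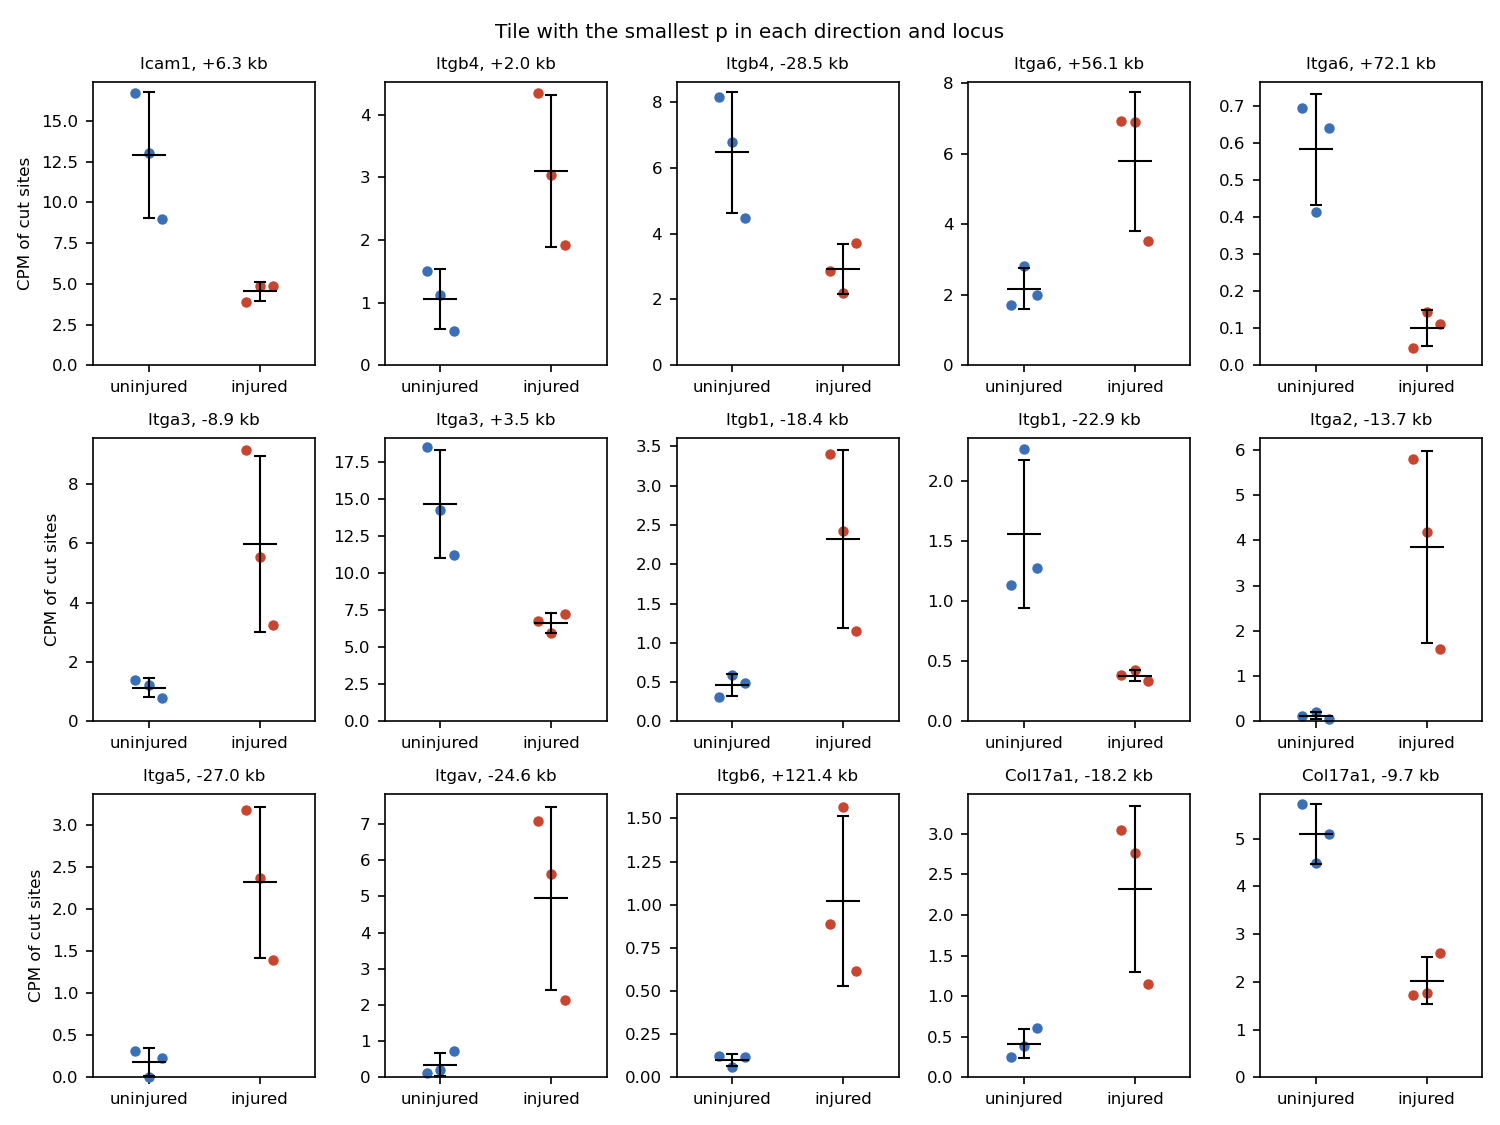
CPM of cut sites in the tile with the smallest p in each direction and locus, 1 dot per library with mean and SD (n = 3); the distance from the 5′-most start stands above each panel, negative upstream. In each panel the 3 injured libraries lie on 1 side of the 3 uninjured libraries, which follows in part from picking called tiles by p. In every panel that rises injured replicate 3 is the lowest of the injured libraries.

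Sequence features that the choice of genes did not use were counted in the called tiles. AP-1 letters (TGANTCA on either strand) were present in 28 of the 48 tiles that rose (58.3%), 2 of the 20 that fell (10%) and 17.6% of the locus tiles not called. Across the genome AP-1 letters were in 59.7% of the higher tiles, in 7.41% of the lower ones and in 20.3% of all tested, and the share in the loci was close to the share in the genome for each direction. By gene, AP-1 letters were in 4 of 4 higher tiles at Itga2, 3 of 4 at Itga3, 3 of 4 at Col17a1, 4 of 6 at Itga5, 6 of 11 at Itgav, 4 of 11 at Itgb6, 2 of 5 at Itgb1, 1 of 2 at Itga6 and 1 of 1 at Itgb4. Icam1 had 0 of its 7 lower tiles with AP-1 letters. The p53 family half-site was present in 9 of the 20 tiles that fell, 3 of them at Icam1 and 3 at Itga6, against 17.9% of all tiles tested and 21.3% of tiles called lower in the genome.

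Levels by cell class show where these elements were open. The Icam1 start was open in basal-like barcodes (above) and in immune-like barcodes, at 78.9 CPM in the 42 of uninjured replicate 2 and 28.2 CPM in the 21 of injured replicate 3, the libraries with at least 20 such barcodes. In sustentacular-like barcodes it held 3.23 and 3.14 CPM (uninjured replicates 2 and 3), in precursor-like ones 1.63 to 2.62 CPM, and in mature neuron-like ones 0 CPM. In barcodes of unnamed clusters it was also open, at 58.6, 27.5 and 44.1 CPM in uninjured and 13.9, 11.3 and 28.1 CPM in injured libraries, and such barcodes were 367 of the 629 of uninjured replicate 3. The Itgb4 start was at 35.6 to 36.3 CPM in uninjured basal-like barcodes, at 22.01 and 23.95 CPM in sustentacular-like ones, at 31.8 and 32.2 CPM in the same immune-like barcodes as above and at 1.04 CPM in mature neuron-like barcodes of uninjured replicate 3. The open start of Itga6 ranged from 14.4 to 40.0 CPM and that of Itgb1 from 16.8 to 59.4 CPM over all classes and libraries measured. Markers of other cells moved with the groups. The summed gene-body level of the 8 immune markers was 56.9 to 60.0 CPM before and 70.5 to 72.4 CPM after injury, with 1 of 8 called higher and none at 0. That of the 5 sustentacular markers was 42.2 to 75.0 CPM before and 31.2 to 34.1 CPM after, with 0 called and none at 0. That of the 4 markers of Bowman gland and duct was 93.6 to 106.4 CPM before and 72.1 to 78.2 CPM after, with 1 called lower and none at 0. The sums of the other 6 lists overlapped between the groups. The part of these cells in the Icam1 result was not tested. In basal-like barcodes alone the Icam1 start fell by 0.79 on the log2 scale (edgeR adjusted p 8.81e-07), where 6.11% of start windows were called lower. Those barcodes were 72.7%, 62.2% and 25.3% of the kept ones in uninjured replicates 1 to 3. In injured replicates 1 to 3 they were 89.3%, 76.9% and 46.4%. They lay in different clusters in the groups, so this fit may compare unlike basal-like cells.

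Basal-like barcodes of the groups lay in different clusters, so these levels are descriptions without a test. Cluster 1 held 309, 485 and 149 barcodes of uninjured replicates 1 to 3, and clusters 2, 3 and 5 were almost all injured. The Icam1 start was at 75.0, 62.9 and 57.2 CPM in cluster 1. Among injured libraries it was highest in cluster 3, at 39.3, 38.7 and 38.7 CPM, and lower in cluster 2, at 27.5, 27.7 and 24.0 CPM, and in cluster 5, at 25.2, 20.4 and 17.3 CPM. The Icam1 intron 2 tile was at 19.9 to 24.1 CPM in cluster 1, at 8.21 to 10.9 in cluster 3 and lower in clusters 2 (2.97 to 4.85) and 5 (1.63 to 3.69), whose ranges overlapped.

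The Itga2 upstream tile held 0.255, 0.539 and 0 CPM in cluster 1, 0.684, 0 and 0 CPM in cluster 3, 7.39, 6.74 and 7.00 CPM in cluster 2 and 8.37, 4.88 and 5.09 CPM in cluster 5. Cluster 3 of injured libraries was thus near the uninjured level at this tile, and clusters 2 and 5 had no common order. The Itgav upstream tile was at 0 CPM in cluster 1 in all 3 uninjured libraries, at 1.37, 2.12 and 0.526 in cluster 3, at 5.96 to 7.65 in cluster 2 and at 12.6 to 20.4 in cluster 5. The Itgb4 start, which was not called, was at 32.3 to 36.7 CPM in cluster 1, 25.7 to 40.1 in cluster 3, 26.9 to 27.9 in cluster 2 and 22.4 to 45.6 in cluster 5. Cluster 5 of injured replicates 2 and 3 held only 43 and 29 barcodes.

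**Figure D4:**
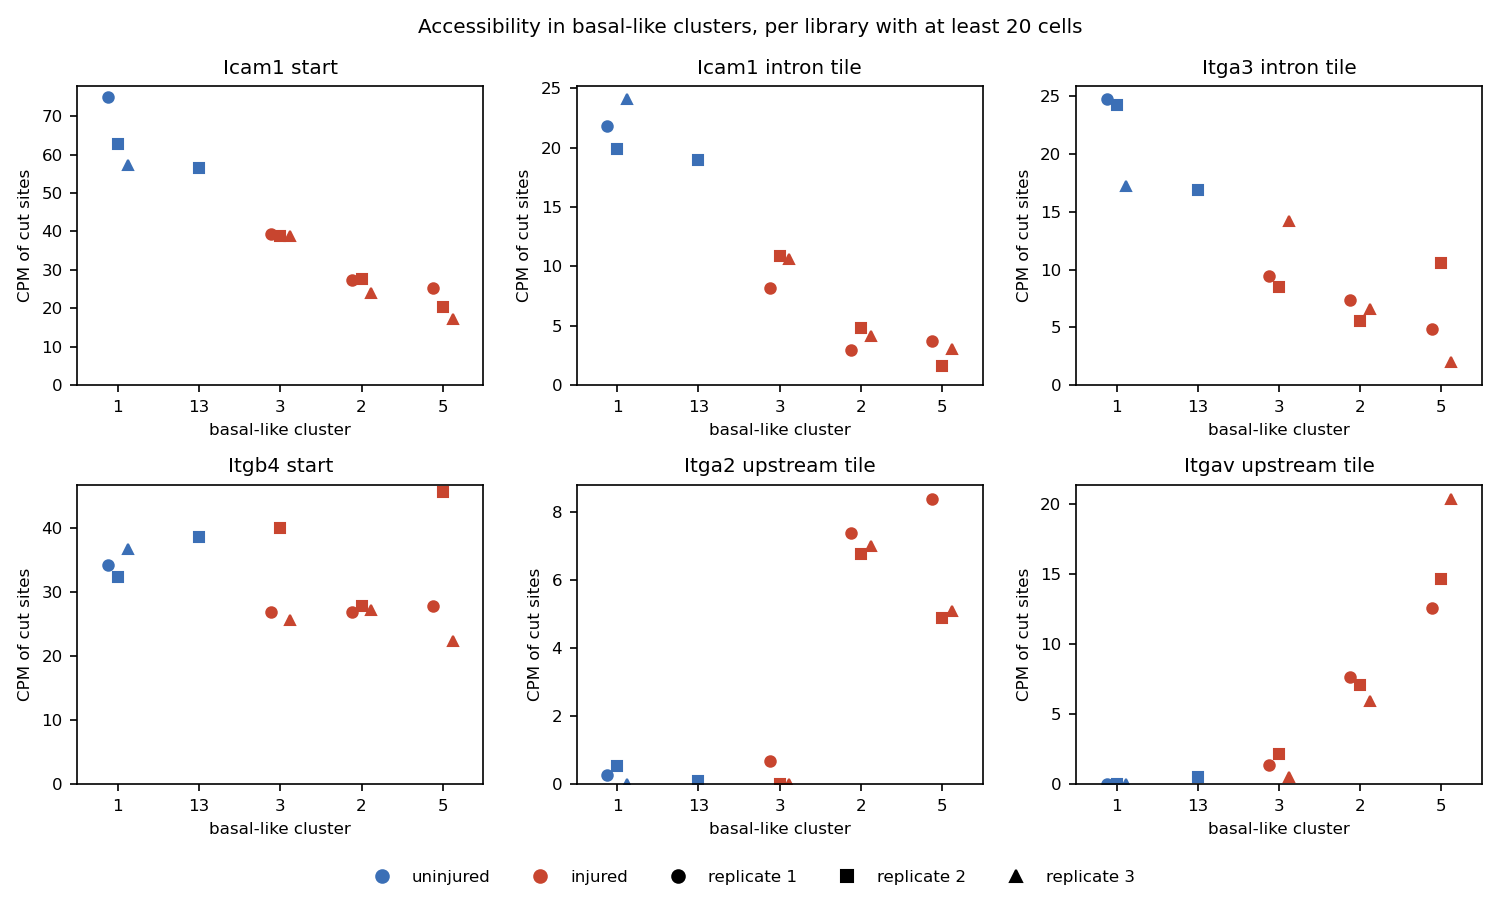
Unscaled CPM of cut sites in the horizontal basal-like clusters, for each library with at least 20 barcodes in the cluster; blue is uninjured, red injured, and the marker shape gives the replicate. The Icam1 start and intron tile fall from cluster 1 through cluster 3 to clusters 2 and 5, the Itga2 tile is under 1 CPM in clusters 1, 13 and 3, and the Itgav tile is at 0 in cluster 1, between 0.526 and 2.12 CPM in cluster 3 and higher in clusters 2 and 5.

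The start windows whose pattern over the 6 libraries was most like that of Icam1 were Lpcat3 (Pearson r 0.996), Bcl2l1 (0.995), Smad7 (0.993), U2af2 (0.991) and Wnt4 (0.991), of 6363 windows with a mean of at least 20 CPM. All these values share the same 6 libraries and are descriptions. Their changes ran from −0.34 to −0.16 on the log2 scale. Because likeness to Icam1 fixes their direction, no test is given for these windows.

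Other genes of the adhesion machinery were taken from lists, also chosen with earlier results of these data known. They were set beside all start windows, of which 2.21% were called higher and 1.71% lower. Of 15 other integrin subunits tested (Itgad, Itgae and Itgal were too low), 2 were called higher and 0 lower by both edgeR and DESeq2, with a median of 0.38 and 1 lower at an unadjusted p under 0.05. Over all 17163 windows DESeq2 called 624 higher and 475 lower. With no low-count filter, edgeR gave 4369 of 21309 windows an unadjusted p under 0.05, directions combined. Itgb7, a leukocyte integrin chain, rose from 0.780, 1.33 and 2.02 to 4.46, 4.24 and 4.23 CPM (1.60 ± 0.33 SE, edgeR adjusted p 0.0189). Itgb8, a partner of Itgav, rose from 12.2, 12.3 and 11.8 to 17.3, 17.1 and 14.9 CPM (0.44 ± 0.12, edgeR adjusted p 0.0493), and its change was −0.11 under scaling by 10 kb bins. The immune marker sums given above were higher in the same libraries as Itgb7, and their part in it was not tested. Itgb7 was not called without uninjured replicate 1 or 2 or injured replicate 1 or 2 (edgeR adjusted p 0.0804 to 0.0879), nor Itgb8 without any 1 library other than injured replicate 3 (0.0933 to 0.17). Itgb8 was also not called with total cut sites (edgeR adjusted p 0.355), without the deepest 10% of barcodes (0.147), in basal-like barcodes (0.157) or with no low-count filter (0.0537).

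Of 12 other adhesion molecules of leukocyte traffic, 1 rose and 1 fell (median 0.34), where 2.21% of all windows rose and 1.71% fell. Cd44, the hyaluronan receptor, rose from 10.2, 11.99 and 12.3 to 22.4, 19.7 and 15.6 CPM (0.74 ± 0.14 SE, edgeR adjusted p 0.013). Icam4, the gene that follows Icam1 on chromosome 9, fell from 30.9, 19.6 and 21.5 to 12.6, 14.4 and 15.05 CPM (−0.76 ± 0.16, edgeR adjusted p 0.0224). The Icam4 window (chr9:21028373-21030373) overlaps the 3′ end of Icam1 and contains the called tile past that end. The Icam4 fall and that tile of the Icam1 locus therefore share cut sites. The next gene, Icam5, stood at 0.03. Cd44 was not called without uninjured replicate 1 or 2 or injured replicate 1 or 2 (edgeR adjusted p 0.0581 to 0.0808) or with scaling by 10 kb bins (0.406), nor Icam4 when uninjured replicate 1 (0.0676) or either of injured replicates 1 (0.0972) and 2 (0.0985) was left out.

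Of 17 integrin adaptors tested, Src rose (1.77 ± 0.30 SE, edgeR adjusted p 0.00775) and Fermt2 fell by 0.36 ± 0.09 (0.0375), and the median was −0.04, again beside 2.21% higher and 1.71% lower of all windows. Src, the kinase recruited to integrin contacts, went from 1.02, 2.35 and 1.99 to 7.49, 6.33 and 5.01 CPM at its 5′-most start, and at its most open start the change was 0.31, not called (edgeR adjusted p 0.0988). Fermt2 encodes the integrin activator kindlin-2, and Fermt1, the epithelial kindlin, was called higher with the replicate block, which called 10.5% of all windows in either direction (0.72 ± 0.13 SE, edgeR adjusted p 0.0139). Src was not called without injured replicate 1 (0.0543) or 2 (0.055), nor Fermt2 without uninjured replicate 1 or 2 or injured replicate 1 or 2 (0.0918 to 0.166). Fermt2 also lost its call without low-share barcodes (edgeR adjusted p 0.0558), without the deepest 10% of barcodes (0.1), in basal-like barcodes (0.0814) and within 500 bp of the start (0.0788).

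Of 15 matrix ligands tested, Lama5, the alpha chain of the main laminin of mature basement membranes, fell by 0.37 ± 0.09 (SE; edgeR adjusted p 0.0439), and 0 rose (median 0.09), beside 1.71% lower and 2.21% higher of all windows. DESeq2 called 1 higher, where it called 624 of all 17163 windows higher, and 1 was higher at an unadjusted p under 0.05. With no low-count filter, 4369 of 21309 windows had such an edgeR p, directions combined. Lama5 was called with the 6 libraries and without uninjured replicate 3, but not without any other (edgeR adjusted p 0.0722 to 0.161), without low-share barcodes (0.0592) or within 500 bp of the start (0.0514). With the replicate block, where 10.5% of all windows were called, Hspg2 (perlecan, −0.40, edgeR adjusted p 0.0259) was added among those lower, and Spp1 (osteopontin, 1.62, 0.0406) among those higher. Over gene bodies the calls of Itgb7, Itgb8, Cd44, Src, Fermt2 and Lama5 were lost.

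Scaling sets the reference for every change above. The main factors put the median start window at 0.00. With factors from 10 kb bins of the whole genome the median window moved to −0.54 and with total cut sites alone to −0.28. Relative to those medians Icam1 stood at −0.71 and −0.69 and Itgb1 at −0.40 and −0.40. Without subtracting those medians, Itgb4, Itga3 and Itgav were also called lower under both, and Itga5 under 10 kb bins. Over all windows the calls were then 272 higher and 9830 lower with 10 kb bins and 417 higher and 6600 lower with total cut sites, against 379 and 294 with the main factors. The Itga6, Itga5 and Col17a1 windows changed sign under 10 kb bins, and Itga5 also with total cut sites.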

How the data were processed

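Single-cell ATAC-seq of sorted cells was analysed from 6 libraries, 3 uninjured and 3 injured. The authors deposited fragment files with a read-pair count for each fragment and barcode, made with Cell Ranger 2.0.0 on mm10 per the submitters' processing notes. The deposited matrix counts name software 1.2.0 per the file headers and were not used here. Annotated genes and starts came from GENCODE M21 and sequences from the RefSeq GRCm38 genome, and the annotation the authors used is not given in the sources used here.

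Each fragment gave 2 cut sites, counted once whatever its read-pair count, for barcodes with at least 2000 fragments. Tiles were tested where their mean CPM over all 6 libraries reached 5 times the level of the median tile. Tiles and windows were tested only where they also passed edgeR's filterByExpr at its default settings, which left 406452 of 514026 tiles. Differences were tested with edgeR 4.0.16 (quasi-likelihood, TMM, group only) over all windows or tiles, with Benjamini-Hochberg adjustment and a threshold of 0.05. DESeq2 1.42.0 was an alternative, run in R 4.3.3. Barcodes were clustered with leidenalg 0.10.2 on tiles outside the 10 loci. No doublet caller was run, and leaving out the deepest 10% of barcodes was an alternative.

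The genes and lists were chosen with earlier results of these data known. All 10 genes are named, with the called tile of smallest p per locus and direction, the called genes of each list, and the 5 windows most like Icam1. The summary of 1 list is not reported here.

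Same-numbered libraries deviated together, with correlations of 0.210, 0.318 and 0.321 over start windows and 0.197, 0.237 and 0.265 over tiles. Between unlike numbers the correlations ran from −0.335 to 0.107 over start windows and from −0.310 to 0.165 over tiles. Same-numbered libraries also share an age in the labels, and those of replicate 3 share 34 barcodes. The numbers entered only the replicate block, an alternative. The main test used the group only, so its p-values leave any pairing out.

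On simulated data for start windows (17163 tested), 140 of 200 changes of 1 on the log2 scale and 180 of 200 changes of 2 were recovered, with 12 and 10 calls at unchanged windows. For tiles (406452 tested) the figures were 0 of 200 and 32 of 200, with 0 and 9 calls at unchanged tiles, so changes at single tiles may be missed and some tile calls may be false. Each simulation changed only 200 windows or tiles, while the data gave 673 called windows and 22267 higher and 5103 lower tiles. With so few changed the adjustment is stricter, so these figures do not give the recovery in the data.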

Additional observations from a re-analysis of the deposited data

How the results depend on the processing

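The number of the 10 members called at their starts was 2, and it was 6 with scaling by 10 kb bins, 5 with total cut sites, 1 in basal-like barcodes and 0 to 3 when 1 library was left out. Of all 17163 start windows, 272 were higher and 9830 lower with 10 kb bins, and 417 and 6600 with total cut sites. In basal-like barcodes 1326 were higher and 940 lower of 15397. With 1 library left out, 69 to 768 were higher and 31 to 614 lower. The number of locus tiles called higher was 48, and it was 25 with 10 kb bins, 88 in basal-like barcodes and 6 to 72 when 1 library was left out. Over all tiles 22267 of 406452 were higher, 13247 with 10 kb bins and 44867 of 243739 in basal-like barcodes. With 1 library left out they ran from 4704 to 33958. The number of locus tiles called lower was 20, and it was 61 with 10 kb bins, 35 with total cut sites, 56 in basal-like barcodes and 2 to 34 when 1 library was left out. Over all tiles 5103 were lower, 19865 with 10 kb bins, 9839 with total cut sites and 23357 in basal-like barcodes. With 1 library left out they ran from 659 to 10685. The cause of these shifts was not tested. Of the 68 tiles, 0 were called in the opposite direction by the alternatives on the same grid, and the named tiles have no value on the grid shifted by 250 bp. The replicate block gave 56 higher and 25 lower tiles, where it called 25939 higher and 7517 lower of all 406452. Beside the calls named above the block changed no other call of a member or named tile, nor of a named gene other than those picked for likeness to Icam1, which are given without a test.

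Of 627 alternative values for single genes and tiles, 470 kept their direction and side of the threshold, 105 fell short of it, 27 passed it and 25 changed sign. The changes of sign with 10 kb bins were Itga6 at −0.064, Itga5 at −0.54, Col17a1 at −0.27 and Itgb8 at −0.11. For Itga5 the others were −0.28 with total cut sites, −0.11 in basal-like barcodes, −0.0036 without shared barcodes, −0.011 with no low-count filter, and with 1 library left out its range was −0.14 to 0.18, below 0 for uninjured replicate 1, uninjured replicate 3 and injured replicate 1. Itgav was at 0.0013 with DESeq2, 0.012 without low-share barcodes, 0.023 in basal-like barcodes, 0.0072 without shared barcodes, 0.34 over the gene body, 0.012 at its most open start and −0.11 to 0.12 with 1 library left out, above 0 for uninjured replicate 2 and injured replicate 3. Itga6 was at −0.10 over the gene body and −0.20 at its most open start, Itgb6 at −0.47 at its most open start, and Itgb4 at −0.21 to 0.054 with 1 library left out, above 0 for injured replicate 3. Over the gene body Lpcat3 was at 0.055 and Bcl2l1 at 0.063. Tiles with few cut sites in a library are limited by depth, and no lower limit of counts was tested.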
